A study of Mus musculus with 10 samples.

Results

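The results cover 35 genes used as markers of macrophages and other leukocytes in the mouse heart, found by symbol among the 55385 genes of the deposited count table. All 35 were in the table, and 33 passed the filter on low counts, which needed about 10 counts in 5 libraries; S100a9 and Cd3e did not pass and are given as counts. They were read by role as 6 genes shared by most leukocytes, 13 of mononuclear phagocytes, 6 of resident macrophages, 4 of MHC class II, 3 of neutrophils and 3 of lymphocytes. The study measured left ventricular RNA of C56Bl6 mice in 2 groups of 5 libraries. In the HFpEF group the mice were fed a fat-rich diet and given L-NAME, which blocks nitric oxide synthases, over 6 weeks; the combination is used as a mouse model of heart failure with preserved ejection fraction. The Control group received a standard diet for the same 6 weeks. The strain and tissue were shared by both groups, and the labels give neither sex nor age.

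The healthy mouse heart holds macrophages that settle before birth and renew themselves locally, and others that come from blood monocytes. The resident cells carry scavenger and uptake receptors such as CD163, the mannose receptor MRC1, the folate receptor FOLR2 and LYVE1, whereas monocytes and cells derived from them carry the chemokine receptor CCR2. MHC class II proteins, which present peptides to CD4+ T cells, are made by dendritic cells, B cells and a share of the macrophages.

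Library totals lay between 31286355 and 33604554 counts in HFpEF libraries and between 31555001 and 46108710 counts in Control libraries (exact permutation test, two-sided, p = 0.222). The share of counts from mitochondrial genes was 36.2 to 38.5% in HFpEF libraries and 33.6 to 37.5% in Control libraries (exact permutation test, two-sided, p = 0.0635). Control 5, the deepest library, had the highest level of all 10 libraries in 22 of the 35 genes, against 12.7% of all genes tested. It was the highest in each of the 6 resident macrophage genes and in none of the MHC class II or lymphocyte genes. Its part in the results was not tested beyond fits without it. The cardiomyocyte, blood endothelial and fibroblast lists were high in every library; 8 fibroblast genes summed to 888 to 991 CPM, counts scaled to a common library size, in HFpEF libraries and 802 to 957 CPM in Control libraries. The 8 blood endothelial genes summed to 2378 to 2589 CPM in HFpEF libraries and 2106 to 2366 CPM in Control libraries, with no overlap. Of these 8 genes, 4 had a positive and 4 a negative log2 fold change, with a median of -0.03. Such a sum is weighted to its most abundant genes and does not show a shift of the list as a whole. The 35 genes together made up 316 to 392 CPM in HFpEF libraries and 332 to 493 CPM in Control libraries. In RNA from whole tissue, fewer cells of a type and less RNA per cell cannot be told apart.

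None of the 33 tested genes was higher in HFpEF libraries at an adjusted p below 0.05, and 4 were lower: Folr2, F13a1, Csf3r and Ighm. That is 12.1% of the 33, where 2.09% of the 18491 genes tested were lower and 3.24% were higher. At an unadjusted p below 0.05, 13 were lower, where 9.91% of all genes tested were, and 4 were higher, where 10.6% were. The median log2 fold change of HFpEF over Control was -0.25 over the 33 genes, with 26 of them negative, and -0.01 over all genes tested, of which 52.8% were negative. With Control 5 and HFpEF 1 both left out, a choice made after seeing the data, 3 of the 4 stayed lower (Folr2, F13a1 and Ighm) and 21 of 31 tested were negative. With any single library left out, 1 to 4 genes were lower and none was higher. DESeq2 and limma voom also found none higher, and 8 and 3 lower.

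**Figure D1:**
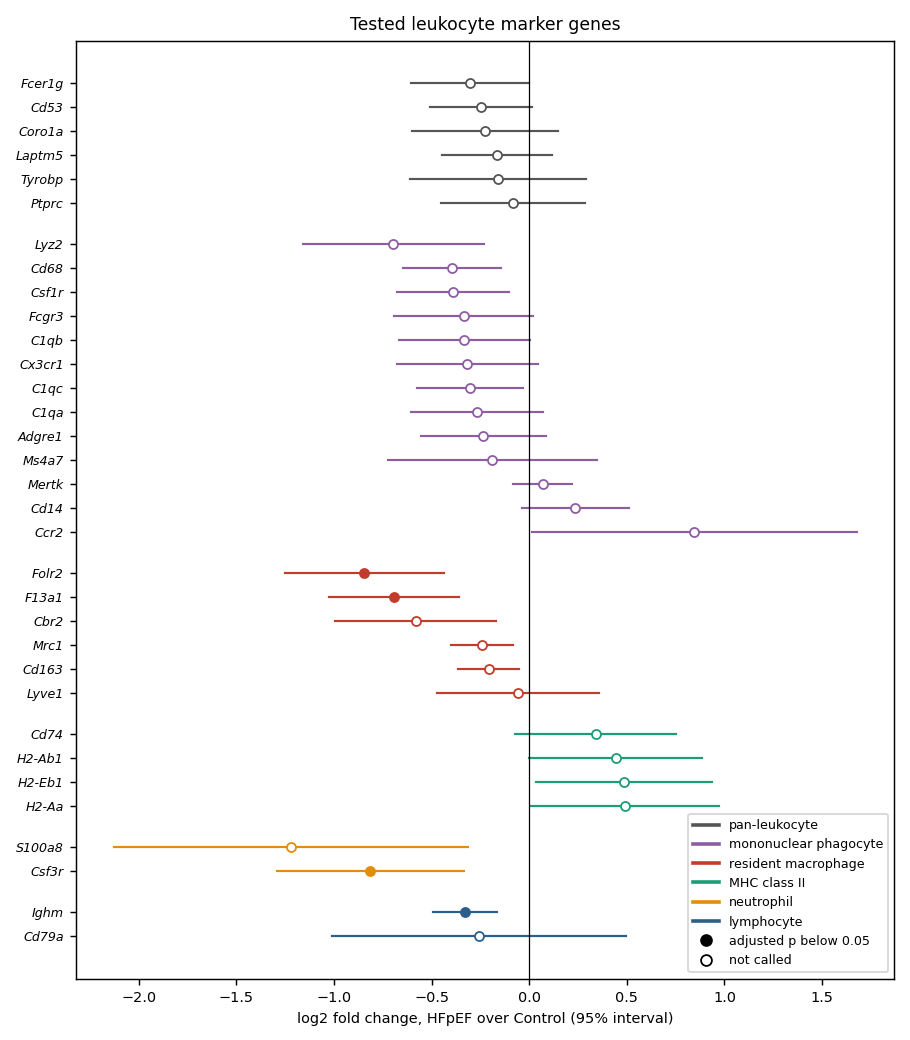
Log2 fold change of HFpEF over Control for the 33 tested marker genes, grouped by role, with 95% intervals; filled points passed an adjusted p of 0.05. The resident macrophage genes lie between -0.84 and -0.06, whereas the 4 MHC class II genes lie between 0.34 and 0.49 and none of them passed.

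The resident macrophage genes held 2 of the 4 lower genes, Folr2 and F13a1. All 6 had a negative fold change, with a median log2 fold change of -0.41, and the other 4 did not pass. Summed, the 6 genes gave 84.4 ± 8.10 CPM in HFpEF libraries and 110 ± 19.5 CPM in Control libraries (SD, n = 5 each), with ranges of 72.6 to 93.1 CPM and 89.1 to 141 CPM.

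A list of 4 atrial genes moved in the same direction: it summed to 15.3 to 29.3 CPM in HFpEF libraries and 37.2 to 58.3 CPM in Control libraries, with no overlap. Nearly all of that sum was Nppa, the gene of atrial natriuretic peptide, which ventricular muscle also makes under load. Nppa averaged 21.6 ± 6.69 CPM in HFpEF libraries and 49.3 ± 8.35 CPM in Control libraries (SD, n = 5 each; log2 fold change -1.19 ± 0.22, SE; adjusted p = 0.0187, edgeR), and was called without each library in turn. Of all 20 alternative fits, Nppa was called in 19. An annotated antisense gene, Gm13054, overlaps 61.5% of the exonic bases of Nppa, and no source used here says whether the counts keep strand. The other 3 atrial genes were near 0 and overlapped between groups: Myl4 had 0.722 ± 0.181 CPM in HFpEF libraries and 0.769 ± 0.250 CPM in Control libraries (SD, n = 5 each; adjusted p = 0.853), and Myl7 and Sln had at most 10 and 3 counts in an HFpEF library and 13 and 2 counts in a Control library. Whether atrial tissue or Nppa has a part in the macrophage values was not tested.

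Folr2 (ENSMUSG00000032725.10; mm10 chromosome 7, 101839988 to 101857194, minus strand) codes for folate receptor beta, a surface protein of resident macrophages. Its level was 1.50, 2.12, 1.40, 2.30 and 1.61 CPM in HFpEF 1 to 5, against 2.20, 3.20, 2.89, 3.05 and 4.52 CPM in Control 1 to 5. In 4 HFpEF libraries it was below every Control library, and HFpEF 4 lay just above Control 1. The log2 fold change was -0.84 ± 0.19 (SE; adjusted p = 0.0187, edgeR), a fold of 0.557. The call ended without HFpEF 3 (adjusted p = 0.0587) or without HFpEF 5 (adjusted p = 0.050) and held without any other library. An annotated antisense gene, Gm10602, overlaps 63.1% of the exonic bases of Folr2, and no source used here says whether the counts keep strand. Gm10602 itself had 3.89 ± 0.423 CPM in HFpEF libraries and 4.44 ± 0.676 CPM in Control libraries (SD, n = 5 each) and did not pass (log2 fold change -0.18 ± 0.12, SE; adjusted p = 0.411).

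F13a1 (ENSMUSG00000039109.16; mm10 chromosome 13, 36867178 to 37050244, minus strand) codes for the A subunit of coagulation factor XIII, a transglutaminase that crosslinks fibrin and is made by macrophages and megakaryocytes. It had 20.3, 25.4, 23.2, 26.7 and 26.4 CPM in HFpEF 1 to 5, against 29.8, 42.0, 39.7, 32.5 and 52.8 CPM in Control 1 to 5. Every HFpEF library was below every Control library, as in 2.93% of all genes tested. The log2 fold change was -0.69 ± 0.15 (SE; adjusted p = 0.0273, edgeR), a fold of 0.619. Without Control 5, its highest library, the change was -0.55 with an adjusted p of 0.0181. The call held also without Control 1 or Control 4 and ended without any of Control 2, Control 3 and HFpEF 1 to 5, where adjusted p-values reached 0.0762. Per kilobase of exon, F13a1 averaged 3.62 CPM in HFpEF libraries and 5.84 CPM in Control libraries.

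Cbr2, a carbonyl reductase found in resident macrophages, was also lower in every HFpEF library than in any Control library. Its values were 2.54, 4.92, 4.61, 4.43 and 4.82 CPM in HFpEF 1 to 5 and 5.00, 5.01, 6.32, 6.73 and 8.62 CPM in Control 1 to 5. The nearest values, 4.92 CPM in HFpEF 2 and 5.00 CPM in Control 1, almost met, and the change missed the threshold (log2 fold change -0.58 ± 0.19, SE; adjusted p = 0.103).

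The scavenger receptors had smaller fold changes. Mrc1, the mannose receptor, ranged from 23.3 to 27.3 CPM in HFpEF libraries and from 26.5 to 35.3 CPM in Control libraries (log2 fold change -0.24 ± 0.07, SE; adjusted p = 0.0752). Cd163, the haemoglobin-haptoglobin receptor, ranged from 13.8 to 15.9 CPM in HFpEF libraries and from 14.4 to 18.7 CPM in Control libraries (log2 fold change -0.21 ± 0.07, SE; adjusted p = 0.117). For both genes the groups overlapped.

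Lyve1, a hyaluronan receptor, stood apart from the other 5. It had 11.2, 13.3, 12.5, 18.3 and 14.5 CPM in HFpEF 1 to 5 and 10.9, 12.7, 14.0, 13.6 and 20.9 CPM in Control 1 to 5. The groups covered the same span, with a log2 fold change of -0.06 ± 0.19 (SE; adjusted p = 0.902) and a 95% interval of -0.47 to 0.35. The sign turned without Control 5 (0.13) or without HFpEF 1 (0.01). Lyve1 is also a marker of lymphatic endothelium, whose list had no gene that passed: its transcription factor Prox1 had a log2 fold change of 0.05 ± 0.06 (SE; adjusted p = 0.696), and the VEGF-C receptor Flt4 had -0.09 ± 0.05 (SE; adjusted p = 0.386). The 6 lymphatic genes summed to 138 to 161 CPM in HFpEF libraries and 136 to 156 CPM in Control libraries.

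**Figure D2:**
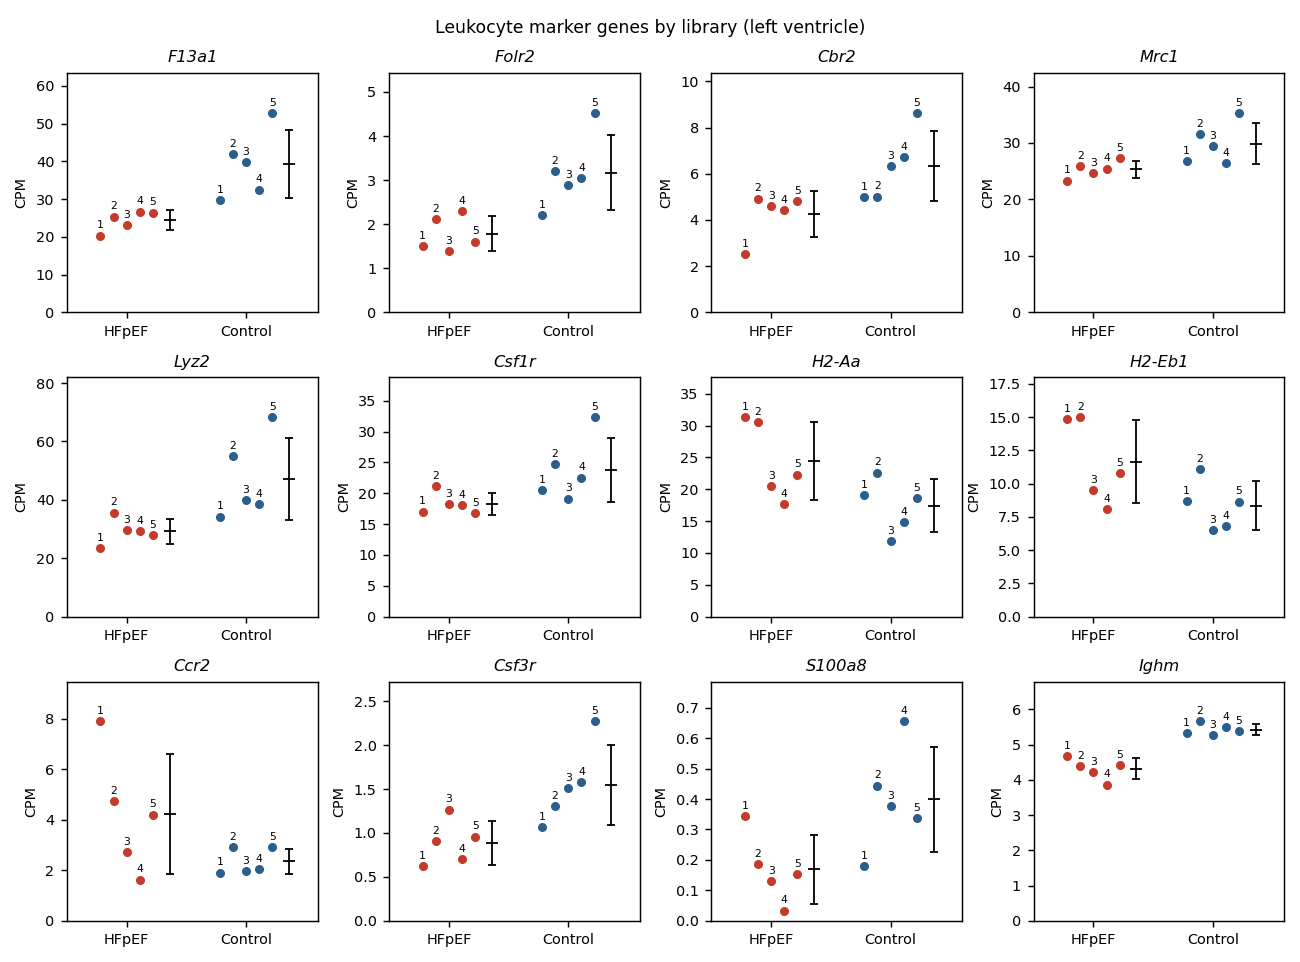
Level in CPM of 12 marker genes in each of the 5 HFpEF and 5 Control libraries, numbered by replicate, with the mean and SD of each group as a bar; each axis starts at 0. F13a1 and Ighm show no overlap between the groups, and Ccr2 spreads from 1.63 to 7.89 CPM in HFpEF libraries.

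None of the 13 mononuclear phagocyte genes passed the test. Their median log2 fold change was -0.30 and 10 of 13 were negative, among them the genes with the highest levels. Per kilobase of exon, Lyz2 averaged 22.2 CPM in HFpEF libraries and 35.8 CPM in Control libraries, the highest level of the 13. C1qb followed with 16.2 CPM in HFpEF libraries and 20.3 CPM in Control libraries.

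Lyz2 codes for lysozyme M, an antibacterial enzyme of macrophages and neutrophils. It had 23.5, 35.6, 29.5, 29.3 and 28.0 CPM in HFpEF 1 to 5, against 34.3, 55.0, 39.8, 38.5 and 68.3 CPM in Control 1 to 5. HFpEF 2 alone lay above Control 1, the lowest Control library (log2 fold change -0.70 ± 0.20, SE; adjusted p = 0.0930). Reads of Lyz2 can be divided with its near copy Lyz1, which makes this value less certain.

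Csf1r is the receptor for CSF1 and IL-34, on which macrophages depend for survival. It ranged from 16.8 to 21.1 CPM in HFpEF libraries and from 19.1 to 32.3 CPM in Control libraries, and the groups overlapped (log2 fold change -0.39 ± 0.13, SE; adjusted p = 0.114). Cd68, a lysosomal membrane protein of macrophages, had 3.88, 5.14, 4.35, 4.36 and 4.70 CPM in HFpEF 1 to 5, against 5.15, 5.27, 5.78, 5.44 and 7.75 CPM in Control 1 to 5. These Cd68 ranges did not overlap, although HFpEF 2 and Control 1 differed only in the third digit, and the change missed the threshold (log2 fold change -0.40 ± 0.12, SE; adjusted p = 0.0664). Without any single library its adjusted p lay between 0.0573 and 0.139.

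The 3 chains of complement C1q, which macrophages secrete, had log2 fold changes of -0.27 (C1qa), -0.33 (C1qb) and -0.30 (C1qc), with adjusted p-values of 0.363, 0.249 and 0.193. The IgG receptor Fcgr3 had a log2 fold change of -0.34 ± 0.17 (SE; adjusted p = 0.273). Adgre1, which codes for F4/80, the fractalkine receptor Cx3cr1 and the membrane protein Ms4a7 had -0.23, -0.32 and -0.19, with adjusted p-values from 0.313 to 0.730. In each of these genes the groups overlapped.

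Mertk, a receptor through which macrophages take up dying cells, ranged from 14.1 to 17.2 CPM in HFpEF libraries and from 13.1 to 16.3 CPM in Control libraries, and its log2 fold change was 0.07 ± 0.07 (SE; adjusted p = 0.642). Cd14, a coreceptor for lipopolysaccharide, had 1.77 to 1.98 CPM in HFpEF libraries, above Control 1 to 4 at 1.43 to 1.57 CPM but not above Control 5 at 2.01 CPM (log2 fold change 0.24 ± 0.13, SE; adjusted p = 0.323).

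Ccr2, the receptor that brings monocytes out of the bone marrow and into tissue, had the highest fold change of the 33 genes and did not pass. It had 7.89, 4.74, 2.73, 1.63 and 4.20 CPM in HFpEF 1 to 5, against 1.90, 2.90, 1.98, 2.05 and 2.91 CPM in Control 1 to 5. In HFpEF 1, 2 and 5 it was above every Control library, whereas HFpEF 4 was below them all. The log2 fold change was 0.85 ± 0.37 (SE; 95% interval 0.01 to 1.68; adjusted p = 0.237). Without HFpEF 1 it was 0.50 (adjusted p = 0.346).

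The 4 MHC class II genes all had positive fold changes, and none passed the test. Cd74, the invariant chain that fills the peptide groove of class II proteins, had 43.0, 41.5, 28.3, 24.9 and 32.6 CPM in HFpEF 1 to 5, against 28.1, 32.0, 19.6, 24.4 and 30.4 CPM in Control 1 to 5 (log2 fold change 0.34 ± 0.18, SE; adjusted p = 0.338). H2-Aa, the alpha chain of I-A, had 31.3, 30.6, 20.5, 17.7 and 22.3 CPM in HFpEF 1 to 5, against 19.1, 22.6, 11.9, 14.8 and 18.7 CPM in Control 1 to 5 (log2 fold change 0.49 ± 0.21, SE; adjusted p = 0.234). HFpEF 1 and 2 were above every Control library for both genes. HFpEF 5 was just above the highest Control library for Cd74 and just below it for H2-Aa, and HFpEF 3 and 4 lay within the Control range.

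For the beta chains HFpEF 1 and 2 were again the highest libraries. H2-Ab1 ranged from 9.09 to 17.8 CPM in HFpEF libraries and from 7.54 to 12.1 CPM in Control libraries (log2 fold change 0.44 ± 0.20, SE; adjusted p = 0.244). H2-Eb1 ranged from 8.09 to 14.99 CPM in HFpEF libraries and from 6.51 to 11.1 CPM in Control libraries (log2 fold change 0.49 ± 0.20, SE; adjusted p = 0.208). In all 4 genes Control 3 was the lowest library, and the sum of the 4 was 83.2 ± 20.8 CPM in HFpEF libraries and 62.2 ± 12.6 CPM in Control libraries (SD, n = 5 each).

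The MHC class II counts were also set against Ptprc, which codes for CD45, the surface phosphatase of all leukocytes. The ratio of the 4 genes together to Ptprc was 5.68, 6.53, 5.57, 5.46 and 5.79 in HFpEF 1 to 5, against 4.47, 4.48, 3.45, 4.67 and 3.65 in Control 1 to 5. Each of the 4 genes, taken alone, had a higher ratio to Ptprc in every HFpEF library than in any Control library, as did 0.530% of all genes tested. The separation depended on the gene in the denominator: it held for 3 of the 4 genes over Cd53, 2 over Tyrobp and none over Laptm5, Coro1a or Fcer1g. This ratio was chosen after its values were seen and is given as a description.

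**Figure D3:**
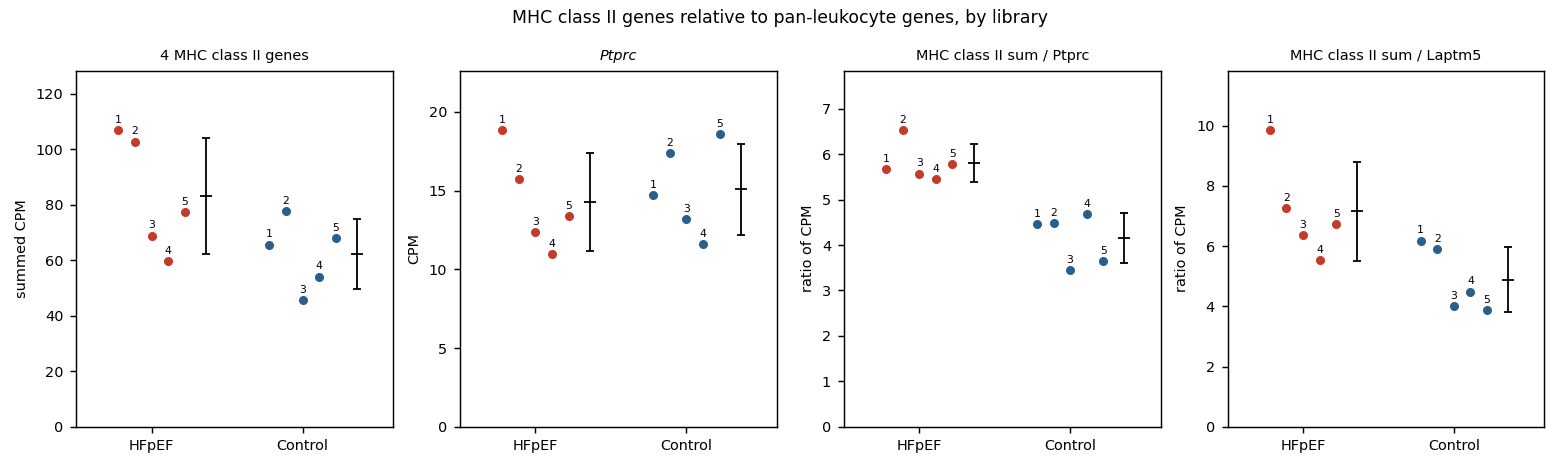
Summed level of the 4 MHC class II genes in CPM, the level of Ptprc in CPM, and the ratios of the sum to Ptprc and to Laptm5, in each HFpEF and Control library. The ranges do not overlap for the ratio to Ptprc (5.46 to 6.53 in HFpEF and 3.45 to 4.67 in Control) and overlap for the CPM and for the ratio to Laptm5.

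The 6 genes shared by most leukocytes did not pass, with log2 fold changes between -0.30 and -0.08. Ptprc had 18.8, 15.7, 12.4, 11.0 and 13.4 CPM in HFpEF 1 to 5 and 14.7, 17.4, 13.2, 11.6 and 18.6 CPM in Control 1 to 5, a full overlap (log2 fold change -0.08 ± 0.17, SE; 95% interval -0.45 to 0.29; adjusted p = 0.838). Its sign turned without Control 5 (0.02). The lysosomal protein Laptm5, the actin-binding protein Coro1a and the tetraspanin Cd53 had log2 fold changes of -0.16, -0.23 and -0.25. The signalling adaptors Tyrobp and Fcer1g, which carry activating signals of many receptors in phagocytes, had -0.16 and -0.30. Adjusted p-values of these 5 genes lay between 0.243 and 0.727.

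**Figure D4:**
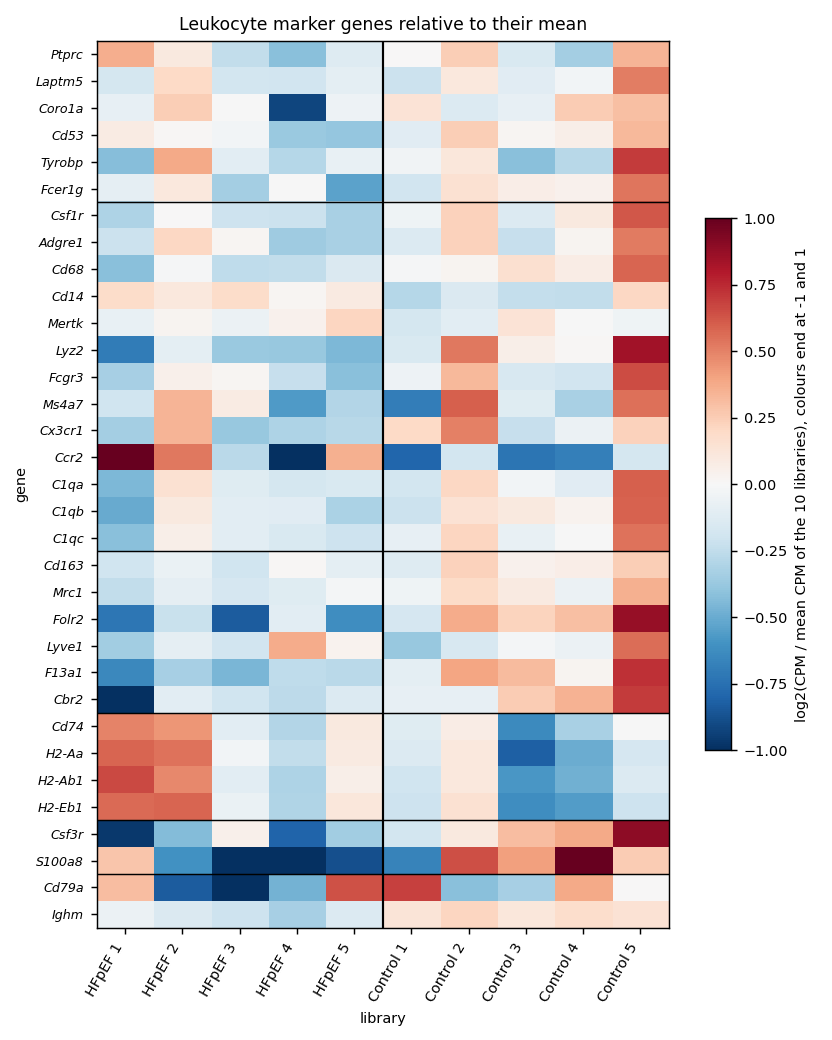
Level of each of the 33 tested marker genes in each library, as log2 of the CPM over the mean of the gene in all 10 libraries, with colours ending at -1 and 1, with HFpEF libraries left of Control libraries. Control 5 stands out as high in the macrophage rows, and HFpEF 1 and 2 as high in the MHC class II rows.

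Of the neutrophil genes, Csf3r was lower and the other 2 rest on few counts. Csf3r (ENSMUSG00000028859.14; mm10 chromosome 4, 126024550 to 126044440, plus strand) codes for the receptor of granulocyte colony-stimulating factor. It had 0.626, 0.904, 1.27, 0.699 and 0.958 CPM in HFpEF 1 to 5, against 1.07, 1.30, 1.51, 1.58 and 2.27 CPM in Control 1 to 5. The groups overlapped through HFpEF 3 and Control 1, and the log2 fold change was -0.81 ± 0.22 (SE; adjusted p = 0.0479, edgeR), a fold of 0.569. The call held only without Control 1 (adjusted p = 0.0364) or without HFpEF 3 (adjusted p = 0.0383). It ended without any of the other 8 libraries (Control 2 to 5 and HFpEF 1, 2, 4 and 5), with adjusted p-values up to 0.112.

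S100a8 and S100a9 code for the subunits of calprotectin, which fills the cytosol of neutrophils. S100a8 had 11, 6, 4, 1 and 5 counts in HFpEF 1 to 5 and 6, 15, 12, 29 and 17 counts in Control 1 to 5 (log2 fold change -1.22 ± 0.43, SE; adjusted p = 0.114). It was called in 1 of the 10 fits that leave out 1 library, that without HFpEF 1 (adjusted p = 0.0424). HFpEF 1 was its highest HFpEF library, so leaving it out lowers the HFpEF level by construction. S100a9 had 6, 2, 4, 2 and 6 counts in HFpEF 1 to 5 and 6, 10, 10, 15 and 22 counts in Control 1 to 5, and was not tested. Both were low in every library. The granule genes Mpo and Elane had 0 counts in all libraries and the surface marker Ly6g had 1 count, in Control 5.

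Of the lymphocyte genes, Ighm was lower. Ighm (ENSMUSG00000076617.9; mm10 chromosome 12, 113418558 to 113422730, minus strand) is the constant region of the immunoglobulin mu chain, made by B cells and plasma cells. It had 4.66, 4.39, 4.22, 3.86 and 4.42 CPM in HFpEF 1 to 5, against 5.33, 5.66, 5.28, 5.49 and 5.38 CPM in Control 1 to 5. Every HFpEF library was below every Control library, and the spread within each group was small. The log2 fold change was -0.33 ± 0.08 (SE; adjusted p = 0.0215, edgeR), a fold of 0.795. The call ended without Control 2, HFpEF 3 or HFpEF 4 (adjusted p = 0.0571, 0.0565 and 0.0590).

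Cd79a, a chain of the B cell receptor, did not accompany it past the threshold. It had 11, 5, 4, 6 and 14 counts in HFpEF 1 to 5 and 15, 7, 7, 16 and 14 counts in Control 1 to 5 (log2 fold change -0.26 ± 0.35, SE; adjusted p = 0.742). Cd3e, a chain of the T cell receptor complex, had 7, 4, 4, 2 and 12 counts in HFpEF 1 to 5 and 3, 5, 1, 4 and 1 counts in Control 1 to 5, too few to test. Among 12 other B cell and plasma cell genes, 8 were tested and none passed. Of the 8, 4 were positive and 4 negative, with a median log2 fold change of -0.01. The nearest to the threshold was the kinase Blk, with 2.07 to 3.62 CPM in HFpEF libraries and 3.33 to 3.67 CPM in Control libraries (log2 fold change -0.46 ± 0.14, SE; adjusted p = 0.0675).

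A wider list of 38 macrophage and monocyte genes held 35 that were tested, of which 6 were lower, none was higher and 31 were negative, with a median log2 fold change of -0.29. The 6 are 17.1% of the 35, where 2.09% of all 18491 genes tested were lower. The list was chosen with earlier results of these data known. Control 5 had the highest level of all 10 libraries in 24 of the 38 genes, against 12.7% of all genes tested. Csf1, the growth factor that binds CSF1R, had 33.9, 38.0, 32.1, 36.3 and 37.5 CPM in HFpEF 1 to 5, against 46.7, 40.3, 42.0, 44.7 and 56.4 CPM in Control 1 to 5. The groups did not overlap (log2 fold change -0.37 ± 0.08, SE; adjusted p = 0.0182), and the call ended only without HFpEF 3 (adjusted p = 0.0550). Il34, the other ligand of CSF1R, did not pass (log2 fold change 0.27 ± 0.12, SE; adjusted p = 0.198).

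The other 5 were surface proteins of macrophages. Stab1, a scavenger receptor also carried by sinusoidal and lymphatic endothelium, averaged 63.7 ± 4.60 CPM in HFpEF libraries and 79.5 ± 10.6 CPM in Control libraries (SD, n = 5 each; log2 fold change -0.32 ± 0.08, SE; adjusted p = 0.0336). The sialic acid receptors Cd33 and Siglec1 had log2 fold changes of -0.37 ± 0.08 and -0.58 ± 0.16 (SE; adjusted p = 0.0163 and 0.0490). The integrin Itgam, of macrophages and neutrophils, had -0.66 ± 0.16 (SE; adjusted p = 0.0264), and the lectin Clec4n had -1.19 ± 0.28 (SE; adjusted p = 0.0212). Itgam shares 68.7% of its exonic bases with the same-strand gene Gm49368, which had 0 to 9 counts. Of these 5, Cd33 was called in all 10 fits that leave out 1 library. Itgam and Clec4n were called in 6 of those fits, Stab1 in 5 and Siglec1 in 3. The libraries without which a call ended were Control 3 and HFpEF 3, 4 and 5 for Itgam; Control 2 and 5 and HFpEF 3 and 4 for Clec4n; Control 3 and HFpEF 1, 3, 4 and 5 for Stab1. Siglec1 kept its call only without Control 1, Control 3 or HFpEF 2.

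Genes of class II processing and dendritic cells numbered 19, of which 15 were tested; 2 were higher, none was lower, and the median log2 fold change was 0.07, where 3.24% of all genes tested were higher. H2-DMb2, a chain of the peptide-loading protein DM, averaged 0.489 ± 0.0999 CPM in HFpEF libraries and 0.244 ± 0.0832 CPM in Control libraries (SD, n = 5 each; log2 fold change 1.02 ± 0.28, SE; adjusted p = 0.0471). It has a near copy, H2-DMb1, so its reads may be divided, and its call held in 1 of 10 fits that leave out 1 library, that without Control 2. Clec9a, a receptor of type 1 conventional dendritic cells, had 10.2 ± 0.901 CPM in HFpEF libraries and 7.90 ± 1.00 CPM in Control libraries (SD, n = 5 each). Every HFpEF library was above every Control library for both genes, as in 3.88% of all genes tested. H2-DMb2 lay near the filter on low counts, which its 5 HFpEF libraries could meet without any Control library. The Clec9a log2 fold change was 0.37 ± 0.09 (SE; adjusted p = 0.0280), and the call ended without Control 1, HFpEF 1, HFpEF 4 or HFpEF 5. Named after their values were seen, Ciita, the master regulator of class II transcription, had a log2 fold change of 0.27 ± 0.17 (SE; adjusted p = 0.395). The chemokine receptor Xcr1 had 1.01 ± 0.34 (SE; adjusted p = 0.104) and the integrin Itgax, which codes for CD11c, had 0.81 ± 0.28 (SE; adjusted p = 0.109).

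Among 19 further T cell and natural killer cell genes, 8 were tested and Cd247, the zeta chain of the T cell receptor complex, was lower. That is 12.5% of the 8, where 2.09% of all genes tested were lower. Of the 8, 5 were positive and 3 negative, with a median log2 fold change of 0.14. Cd247 averaged 0.675 ± 0.173 CPM in HFpEF libraries and 1.48 ± 0.246 CPM in Control libraries (SD, n = 5 each), with no overlap. Its log2 fold change was -1.12 ± 0.20 (SE; adjusted p = 0.00415), and it was called without each library in turn. The opposite-strand gene Pou2f1 overlaps 56.4% of its exonic bases and did not pass (adjusted p = 0.594). The other 7 T cell and natural killer cell genes tested had no call, and Cd3e had more counts in 2 HFpEF libraries (7 and 12) than in any Control library.

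**Figure D5:**
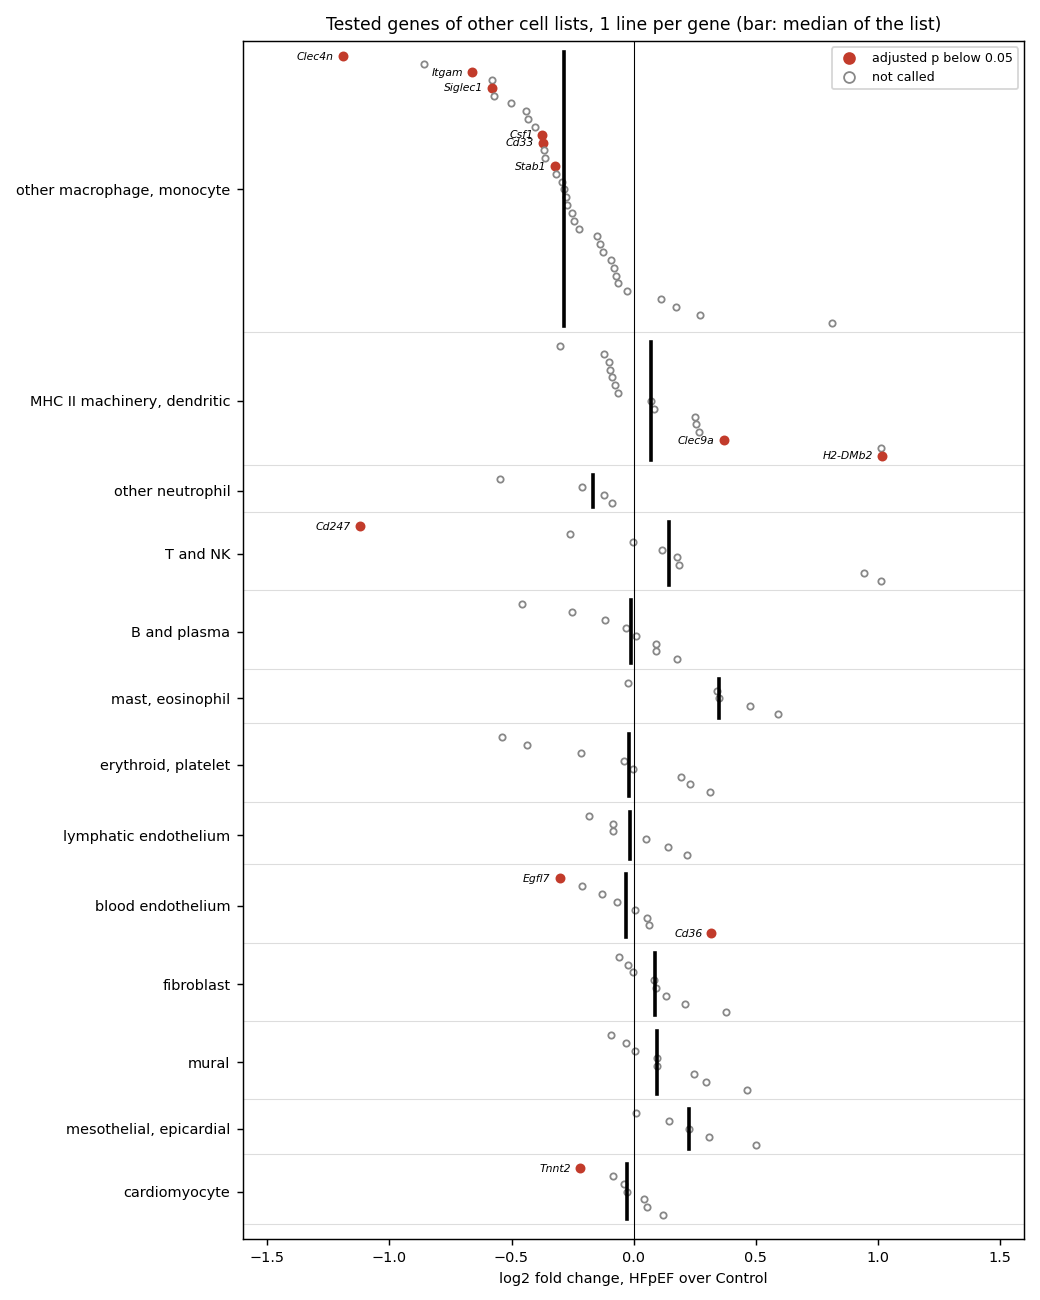
Log2 fold change of HFpEF over Control for the tested genes of other cell lists, 1 line per gene, with the median of each list as a bar; filled, named points passed an adjusted p of 0.05. In the macrophage and monocyte list 31 of 35 genes lie left of 0, and the 6 that passed are all lower in HFpEF.

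Upstream sequences are shown for the 2 resident macrophage genes that were lower and for 2 class II genes that were highest in the same libraries; the class II pair was chosen after its values were seen. Each is the 250 bases before the transcript start in RefSeq on build GRCm38.p6, read 5′ to 3′ on the strand of the gene. Capitals mark matches to GAGGAA, which reads as TTCCTC on the other strand and is the core bound by PU.1, a factor of macrophage and B cell genes. They also mark matches to the CCAAT box (ATTGG on the other strand). The Y box of class II promoters is a CCAAT box, but a match to these letters alone does not make a Y box. No GAGGAA match overlaps a CCAAT match in these 4 windows. The windows are chr13:37050245-37050494 (F13a1, minus strand), chr7:101857191-101857440 (Folr2, minus strand), chr17:34287824-34288073 (H2-Aa, minus strand) and chr17:34305617-34305866 (H2-Eb1, plus strand).
F13a1: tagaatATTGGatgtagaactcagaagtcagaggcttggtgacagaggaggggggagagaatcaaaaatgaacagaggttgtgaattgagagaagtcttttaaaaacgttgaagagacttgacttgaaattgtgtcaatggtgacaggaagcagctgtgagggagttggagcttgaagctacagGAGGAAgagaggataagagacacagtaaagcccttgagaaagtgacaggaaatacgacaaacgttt
Folr2: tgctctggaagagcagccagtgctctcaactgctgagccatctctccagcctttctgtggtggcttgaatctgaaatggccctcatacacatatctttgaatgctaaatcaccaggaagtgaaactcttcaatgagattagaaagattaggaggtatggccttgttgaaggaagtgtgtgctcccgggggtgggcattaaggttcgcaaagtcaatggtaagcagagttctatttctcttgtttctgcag
H2-Aa: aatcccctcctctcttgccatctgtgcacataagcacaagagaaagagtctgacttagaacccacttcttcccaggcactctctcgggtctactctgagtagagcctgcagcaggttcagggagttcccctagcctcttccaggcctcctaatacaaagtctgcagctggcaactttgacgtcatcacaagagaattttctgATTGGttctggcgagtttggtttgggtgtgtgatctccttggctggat
H2-Eb1: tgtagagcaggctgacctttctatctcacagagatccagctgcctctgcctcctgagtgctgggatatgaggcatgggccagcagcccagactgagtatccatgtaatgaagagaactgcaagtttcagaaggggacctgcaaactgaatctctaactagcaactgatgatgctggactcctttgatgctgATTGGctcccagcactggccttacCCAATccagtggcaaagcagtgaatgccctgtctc
F13a1 holds GAGGAA from 66 to 61 bases before the start and ATTGG from 244 to 240. H2-Aa holds ATTGG from 48 to 44 bases before the start, and H2-Eb1 holds ATTGG from 59 to 55 and CCAAT from 35 to 31. Folr2 holds neither, and the interferon response core, a longer motif searched on both strands, is in none of the 4. Such windows were in the table for 26 of the 35 genes. GAGGAA was in at least 1 window of 14 of these genes, CCAAT of 9 and the interferon response core of none. Of all 32851 single windows of that length, 23.3%, 33.8% and 2.98% held a match. A gene can have several windows, such as 2 each for F13a1 and Folr2. The counts of genes and the shares of windows are therefore unlike units and cannot be compared directly. A match describes letters in the window and shows neither binding nor cause.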

How the data were processed

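The deposited values are whole-number expected counts per gene, not normalized. Per the submitters' processing notes, Bowtie2 2.1.0, RSEM 1.2.15 and build mm10 were used, with no role given; RSEM divides reads that match several transcripts. Per the labels' protocols, total RNA was depleted of ribosomal RNA. No source used here gives the authors' annotation or strand setting. These counts were used as deposited, without the 92 spike-in sequences, which had 0 counts. Positions come from GENCODE M21, matched by identifier for 55144 of 55385 genes.

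Genes were kept by filterByExpr (minimum count 10), scaled by TMM and tested over all 18491 genes kept with the quasi-likelihood test of edgeR 4.0.16 (robust, group only) in R 4.3.3, with Benjamini-Hochberg adjustment at 0.05. CPM are TMM-scaled counts per 1e6 counts. SE is the log2 fold change over the square root of F. DESeq2 1.42.0, limma voom 3.58.1, other scalings and filters, a replicate block and fits without each library were alternatives; the pipeline was tested on simulated data. No 2 libraries of a group agreed within sampling noise. Whether each library is a separate mouse is not in the labels, so p-values measure the spread between libraries.

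The genes and lists were chosen with earlier results of these data known. All 35 genes are named; for each other list, the rule took the genes called, or that with the smallest p, and the most expressed one; every called gene is printed, and some of the rest are not. Ciita, Xcr1, Itgax and Il34, and genes at or near 0, were named after their values were seen.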

Additional observations from a re-analysis of the deposited data

Results flagged for a closer look

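Within a group of 5 libraries, 5 values of the 35 genes stood apart from the other 4 libraries by Dixon's criterion, out of 70 combinations of gene and group; chance alone flags about 1 in 20. In HFpEF libraries, Laptm5 was high in HFpEF 2, at 14.1 CPM where the others had 10.8 to 11.5 CPM. Cx3cr1 was also high in HFpEF 2, at 2.56 CPM against 1.56 to 1.67 CPM in the other HFpEF libraries. Cbr2 was low in HFpEF 1, at 2.54 CPM against 4.43 to 4.92 CPM. In Control libraries, Control 5 was high for Cd68, at 7.75 CPM where the others had 5.15 to 5.78 CPM. Control 5 was also high for Cd14, at 2.01 CPM against 1.43 to 1.57 CPM, although Cd14 had a positive fold change and Cd68 a negative one.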

How the results depend on the processing

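Over all genes, 599 were higher and 386 lower in HFpEF libraries, and DESeq2 called 926 higher. Of the leukocyte genes, DESeq2 called 8 lower, adding Cbr2, Cd68, Csf1r and Lyz2. Without a filter 4 were lower, with Cd68 in place of F13a1 (adjusted p = 0.0811); Lyz2 took the place of Csf3r (0.0553) without the robust fit, and limma voom (0.0560) and the stricter filter, under which it was not tested, lost Csf3r. The 4 calls held under RLE and upper quartile scaling and without mitochondrial transcripts. Over all genes tested, same-numbered libraries did not deviate together (r between -0.11 and 0.06). The labels do not say that the numbers pair libraries, and this correlation cannot exclude a pairing. With a replicate block, 3 leukocyte genes were higher (H2-Aa, H2-Ab1 and H2-Eb1, adjusted p = 0.00899, 0.0339 and 0.0108). In that fit 6 were lower, 3 of them among the 4, with Ighm lost (0.0662). Without each library in turn, 352 to 684 genes were higher and 202 to 417 lower, and 1 to 4 leukocyte genes were lower. The sign turned in these fits for Ptprc (-0.20 to 0.017), Tyrobp (-0.30 to 0.077), Lyve1 (-0.17 to 0.13) and Kit (-0.091 to 0.042). Without both Control 5 and HFpEF 1, chosen after seeing the data, it turned for Laptm5 (0.00061), Tyrobp (0.15) and Lyve1 (0.19), 788 genes were higher and 542 lower, and 3 leukocyte genes were lower. The cause of these changes was not tested. At the counts of S100a8, S100a9, Cd3e and Cd79a, only large differences are detectable.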

Other observations

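Mast cell and eosinophil genes, of which 5 of 9 were tested, gave no call. The mast cell chymase Cma1 had a log2 fold change of 0.59 ± 0.32 (SE; adjusted p = 0.318, edgeR), and Kit, the receptor for stem cell factor, had -0.02. Of 10 erythroid and platelet genes, which bear on blood left in the tissue, 8 were tested and none passed. They summed to 413 to 714 CPM in HFpEF libraries and 442 to 637 CPM in Control libraries, and the platelet chemokine Ppbp had a log2 fold change of -0.54 (adjusted p = 0.227). Of 15 further neutrophil genes, 4 were tested and none passed; Cxcr4, the CXCL12 receptor, had -0.21 ± 0.09 (SE; adjusted p = 0.212).

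None of 8 fibroblast genes, 8 mural cell genes and 5 mesothelial genes passed. Of 8 blood endothelial genes 25% were called, and of 7 cardiomyocyte genes 14.3%, where 5.33% of all genes tested were called in either direction. In the endothelial list the fatty acid transporter Cd36 was higher (log2 fold change 0.32 ± 0.06, SE; adjusted p = 0.00419) and Egfl7 lower (-0.30; adjusted p = 0.0225). The troponin gene Tnnt2, of the cardiomyocyte list, was lower (log2 fold change -0.22 ± 0.05, SE; adjusted p = 0.0185). The call of Cd36 held without each library in turn, that of Egfl7 ended without Control 1, HFpEF 3 or HFpEF 4 (adjusted p up to 0.0691), and that of Tnnt2 ended without Control 1, HFpEF 2 or HFpEF 4 (up to 0.0639). The 7 adipocyte genes summed to 0.0973 to 0.717 CPM in HFpEF libraries and 0.238 to 1.04 CPM in Control libraries, and none was tested.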
